A study of Homo sapiens with 36 samples.

Results

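mRNAs in the heavy polysomal pool were compared with cytoplasmic RNA of HCT-116 cells on day 1 (D1) of exposure to 5-fluorouracil (5-FU). HCT-116 is a line of human colorectal carcinoma cells, and 5-FU is a fluorinated uracil that inhibits thymidylate synthase and is also incorporated into nucleic acids. The comparison holds every library labelled D1: 3 heavy pool libraries and 3 cytoplasmic libraries, lettered A, B and C, which are 6 of the 36 samples of the series, and all 15891 genes of the deposited table. A heavy pool and a cytoplasm with the same letter are taken to come from 1 collection and form a pair.

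Per the labels' protocols, cells were plated 48 h before the drug and received 10 µM 5-FU for 48 h, so that D1 lies within the exposure. Ribosomes were held on their mRNAs with emetine for 10 min, and nuclei and mitochondria were pelleted. The remaining lysate was separated on a sucrose gradient, and the fractions of mRNAs bound by more than 3 ribosomes were combined into the heavy pool. The D0 groups, collected before the drug was added (3 heavy pools and 3 cytoplasms), and the D2 groups, collected at the end of the 48 h (3 and 3), are used as references. All groups are the same line in the same medium, with no modified allele. The labels give the letter as a batch without naming separate cultures, and the p-values therefore measure the spread between these samples, which may be technical. No untreated culture was sampled at D1, and effects of the drug and of 1 more day in culture cannot be told apart. In bulk libraries such as these, a shift in every cell and a shift in some of the cells cannot be told apart either.

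An mRNA that is being translated carries several ribosomes at once and sediments deep in a gradient, while an mRNA that is stored or rarely initiated stays with the free particles or single ribosomes. The number of ribosomes also depends on the length of the reading frame, since a short frame has room for few. mRNAs of ribosomal proteins and several translation factors begin with a terminal oligopyrimidine (TOP) tract, through which mTOR signalling sets their entry into polysomes, and ferritin mRNAs are held off ribosomes by an iron-responsive element when iron is scarce.

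Depth was 41.0 to 55.2 M reads in the D1 cytoplasm and 50.5 to 51.7 M reads in the D1 heavy pool. Values are normalised read counts, that is, reads divided by 1 size factor per library, and every difference is log2(value + 1) in the heavy pool minus that in the cytoplasm, averaged over the 3 pairs, with limma's adjusted p. The ± value is limma's standard error (SE) of that mean of 3 pairs, in which the spread is estimated from all 18 pairs of the 6 days and moderated across genes, so it can differ from the spread of the 3 D1 pairs alone. The cytoplasmic libraries varied more: genes deviated from the group mean with an SD of 0.361 to 0.405 (log2), against 0.180 to 0.226 for heavy pool libraries. The mitochondrial genome gave 7.30 to 8.95 percent of the reads in the cytoplasm but 2.18 to 3.93 percent in the heavy pool, and ribosomal protein mRNAs gave 11.5 to 15.8 percent but 5.20 to 5.30 percent. Deviations of libraries from their group means followed the GC content of the genes in some libraries, with r across genes of -0.397 and 0.438 in cytoplasm A and B and of 0.366 and -0.393 in heavy pool B and C. The part of these shifts in the gene results was not tested beyond the alternatives given with them. Of 16 markers of colorectal epithelium 7 were listed, led by KRT8 with 300398, 357312 and 318533 normalised counts in the cytoplasm, and together they summed to 621880 to 712045 (cytoplasm) and 375092 to 515648 (heavy pool). Of 22 markers of other cell types 5 were listed, with a summed level of 3815 to 3872 and 4587 to 4825.

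Heavy pool and cytoplasm differed for most of the table. An adjusted p under 0.05 was reached by 4901 genes that were higher in the heavy pool (30.8 percent of 15891) and by 4263 that were lower (26.8 percent), together 57.7 percent. The libraries of the fractions did not overlap for 65.5 percent of all genes. The difference was at least 2-fold for 2560 of the higher genes (16.1 percent) and 2624 of the lower ones (16.5 percent). The median over all genes was 0.0911, with quartiles of -0.667 and 0.748, and the medians within pairs A, B and C were 0.112, 0.129 and 0.000388. A library's total decides where 0 lies: when libraries were scaled to equal totals, the median moved up by 0.43, and 7142 genes were higher and 2651 lower, so that 72.9 percent of the calls were higher in place of 53.5 percent. Differences below are therefore relative to the middle of the table, and no absolute share of an mRNA on polysomes was measured.

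The 12 protein-coding genes that were lowest in the heavy pool have reading frames of 24 to 585 amino acids, and they include the ferritin chains, the RNA-binding protein YBX1 and a ribosomal protein. FTL, the light chain of the iron store ferritin, read 200541, 204787 and 152925 in cytoplasm A, B and C and 20800, 20665 and 16394 in the heavy pool. Every heavy pool library thus lay far below every cytoplasmic library. The difference was -3.27 ± 0.19 (adjusted p = 1.39e-08), or 9.62-fold lower. FTH1, the ferritin heavy chain, read 391497, 358717 and 286613 in the cytoplasm and 45501, 45063 and 39523 in the heavy pool, a difference of -2.99 ± 0.19 (adjusted p = 1.39e-08). YBX1, a cold-shock domain protein that packages mRNA, read 263541, 225970 and 186591 in the cytoplasm and 23404, 27282 and 25363 in the heavy pool, a difference of -3.14 ± 0.21 (adjusted p = 1.39e-08). Its paralogue YBX3 was lower too, by a smaller amount (-1.83 ± 0.13, adjusted p = 2.22e-08). PPDPF, named for pancreatic progenitor cells, was at -3.58 ± 0.24, with 45446, 39169 and 32095 in the cytoplasm and 3068, 3254 and 3330 in the heavy pool. POLR2J (-3.00 ± 0.24), a small subunit of RNA polymerase II, and TMA7 (-2.85 ± 0.29), a small translation-associated protein, showed the same order with no overlap of the fractions.

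The other genes among the 12 lowest have copies or neighbours that can share reads. Copies of the genes named above were not examined, and FTH1 is itself a neighbour of BEST1. CSAG2 (-2.96 ± 0.27) and CSAG3 (-2.95 ± 0.26), cancer-testis antigens with near-identical sequences on chromosome X, and CSAG1 (-3.69 ± 0.35), at only 5.11 to 15.0 normalised counts in the heavy pool, are uncertain one by one. BEST1 (-3.23 ± 0.37; GRCh38 chr11:61949821-61965515, plus strand) overlaps FTH1 (chr11:61959718-61967660, minus strand), and the strand setting of the counting is not given in the sources used here, so its reads cannot be told apart from those of FTH1. MTRNR2L8 (-2.84 ± 0.45) is a nuclear copy of a mitochondrial rRNA segment.

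**Figure D1:**
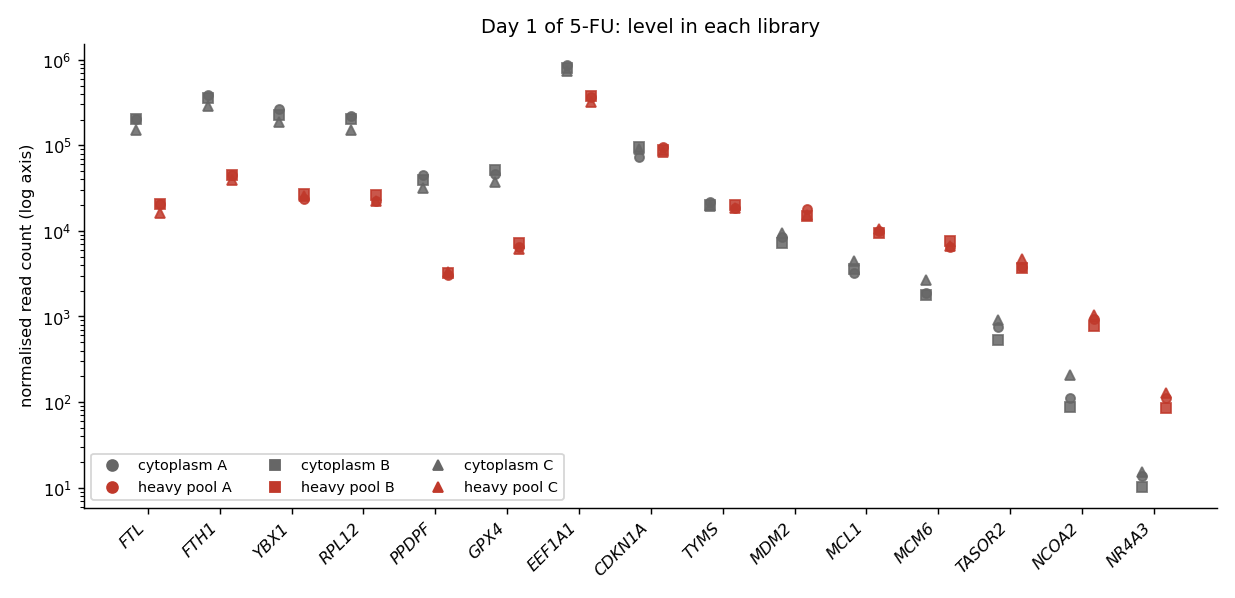
Normalised read count (log axis) of 15 genes in each D1 library, grey for the cytoplasm and red for the heavy pool, with circles, squares and triangles for letters A, B and C. FTL, FTH1, YBX1, RPL12, PPDPF and GPX4 are lower in the heavy pool in every pair, by 6.76-fold or more on average, CDKN1A and TYMS overlap between fractions, and MDM2 to NR4A3 lie higher in the heavy pool. Levels of different genes are not corrected for length and are not to be compared with each other.

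The 12 highest have reading frames of 637 to 2645 amino acids, and the nuclear receptor NR4A3 led them. NR4A3, which is induced by many stimuli, read 13.8, 10.3 and 15.2 in the cytoplasm and 113, 84.5 and 127 in the heavy pool, a difference of 2.95 ± 0.41 (adjusted p = 1.51e-05). NCOA2, a coactivator of nuclear receptors, read 113, 87.6 and 209 in the cytoplasm and 940, 772 and 1054 in the heavy pool (2.83 ± 0.36, adjusted p = 6.20e-06). TASOR2, a relative of the HUSH silencing subunit TASOR, is the best counted of the 12, with 758, 525 and 915 in the cytoplasm and 3797, 3674 and 4708 in the heavy pool (2.50 ± 0.31). In all 3 the lowest heavy pool library exceeded the highest cytoplasmic library. The zinc-finger regulator PRDM10 (2.59 ± 0.35), the ubiquitin ligase adaptor KLHL11 (2.56 ± 0.44), the autophagy lipid-transfer protein ATG2B (2.50 ± 0.50) and the guanine nucleotide exchange factor DOCK4 (2.47 ± 0.37) followed. The kinase MAST4 (2.41 ± 0.34), the phosphodiesterase PDE3B (2.40 ± 0.44), FAM83B (2.35 ± 0.43) and the zinc-finger protein ZNF180 (2.33 ± 0.42) completed the group. SLC9A2, a sodium-proton exchanger, rests on 1 library: cytoplasm B held 2.58 where A and C held 64.3 and 54.8, and without pair B its difference was 1.17 (adjusted p = 0.0681) in place of 2.50.

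Coding length ordered the differences across the table. Among 272 genes with up to 100 amino acids, 85.3 percent were lower in the heavy pool and 1.47 percent higher, with a median of -1.46. Between 200 and 400 amino acids (3561 genes) the shares were 32.2 percent lower and 21.3 percent higher, and the median was -0.128. Above 1600 amino acids (583 genes) 1.72 percent were lower and 73.6 percent higher, and the median was 1.05. Across 12399 protein-coding genes the Spearman correlation of the difference with coding length was 0.587 (Pearson's r with log2 length 0.595), and within pairs A, B and C it was 0.619, 0.579 and 0.443. It was 0.609 with the length of the transcript, so these measures cannot be told apart at D1, and genes are not independent replicates. The correlation with the length of the 3′ untranslated region was 0.395 and with that of the 5′ untranslated region 0.071. The correlation with GC content differed more between the pairs, at -0.207 in A, -0.471 in B and -0.564 in C (-0.441 for their mean), and at D0 it was 0.096. Before the drug the median of the shortest class was -1.13 and that of the longest 0.57, so a length order was present at D0 as well (rho 0.502), with a narrower span. The D0 correlation was 0.368 with transcript length and 0.150 with the length of the 3′ untranslated region.

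**Figure D2:**
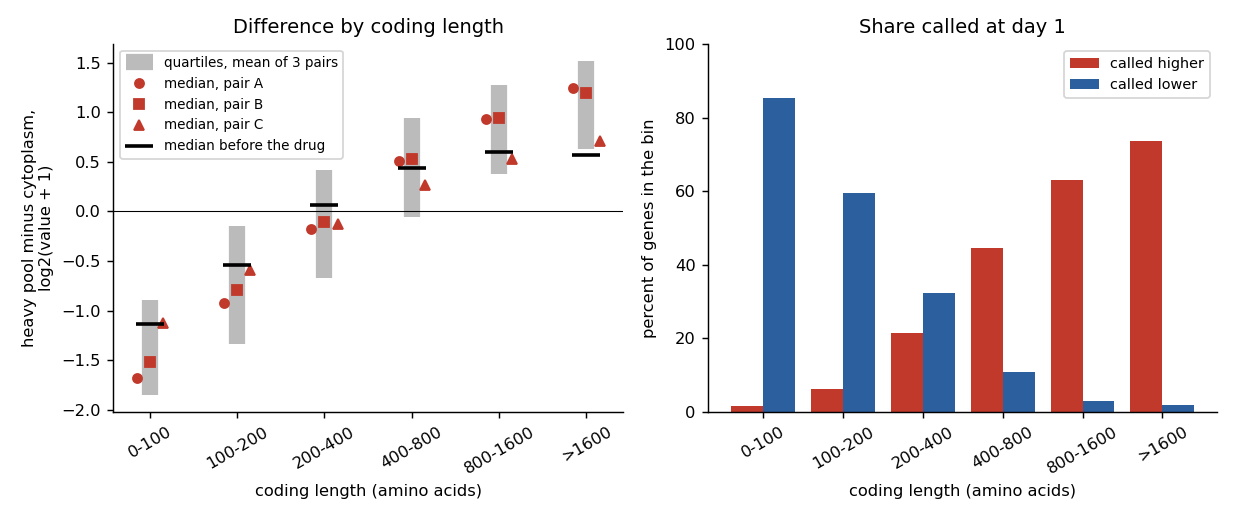
Left, heavy pool minus cytoplasm (log2) by coding length in amino acids, with grey bars for the quartiles of the D1 mean, red symbols for the medians of pairs A, B and C at D1 and black lines for the median at D0. Right, percent of genes in each class called higher (red) or lower (blue) at D1. The median climbs from -1.46 to 1.05 and the share called lower falls from 85.3 to 1.72 percent.

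Counts for the gene lists below are to be read against the shares of all genes at D1, 30.8 percent higher and 26.8 percent lower. They also depend on the letters, and several fell when 1 D1 letter was left out, as over all genes (3417 to 4511 higher, 3418 to 3748 lower). For protein-coding genes alone, the nearer reference for most lists, the shares were 37.2 percent higher and 22.2 percent lower. Cytosolic ribosomal protein mRNAs were lower in the heavy pool without exception. All 79 genes of the list were called lower, against 26.8 percent of all genes, and in each of the 79 the fractions did not overlap (30.3 percent of all genes). Their median was -1.84 (-2.16, -1.86 and -1.57 in pairs A, B and C) against 0.0911 for all genes, with a range from -3.01 for RPL12 to -0.89 for RPL3. The list has a median frame of 151 amino acids. Of all protein-coding genes with 100 to 200 amino acids 59.5 percent were lower (median -0.756), and the part of length in this list was not tested. The large subunit (47 genes) and the small subunit (32 genes) had medians of -1.80 and -1.87. RPL12, a protein of the ribosomal stalk base, read 221331, 202512 and 151001 in the cytoplasm and 22469, 25954 and 22184 in the heavy pool. Cytoplasm A was the highest and C the lowest, while the heavy pool libraries stayed close together, and the difference was -3.01 ± 0.29 (adjusted p = 5.65e-07). RPS12 (-2.70 ± 0.29), RPS20 (-2.48 ± 0.31) and RPS29 (-2.45 ± 0.29), small-subunit proteins, came next. RPL41, the shortest of them with 25 amino acids, was at -2.22 ± 0.23, so the shortest frame was not the lowest. RPL3, whose frame has 403 amino acids, fell from 115907, 124176 and 108562 in the cytoplasm to 61522, 68730 and 57811 in the heavy pool (adjusted p = 0.000162). RPL6 (-0.95 ± 0.24) and RPL11 (-1.11 ± 0.32) had adjusted p = 0.0505 and 0.0972 once pair A was left out. Processed pseudogenes of many ribosomal proteins can take or give reads, which was not tested. The paralogues RPL22L1 (-1.83 ± 0.27) and RPS27L (-1.27 ± 0.27) were lower as well.

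The starts of these mRNAs are shown because a TOP tract is known for these mRNAs. Each line gives the first 24 transcribed bases at the RefSeq start (GRCh38.p14), with the opening run of C and T in capitals.
RPL12: CCTCTCggctttcggctcggagga
RPS12: CTCTTTCCCTgccgccgccgagtc
RPL41: CTCTCggccttagcgccatttttt
RPL39: CCCTCCTCTTCCTTTCTCCgccat
RPLP0: CCTTCTCTCgccaggcgtcctcgt
EEF1A1: CTTTTTCgcaacgggtttgccgcc
EEF2: CTCTTCCgccgtcgtcgccgccat
EIF4B: CTTTTgcgttctctttccctctcc
YBX1: attctcgctagttcgatcggtagc
GAPDH: gtccggatgctgcgcctgcggtag
The first 5 are ribosomal proteins, the next 3 are translation factors with a TOP start, and YBX1 and GAPDH have no such run at this start. The GAPDH start shown (chr12:6535264) lies inside the annotated gene (chr12:6533927-6538374), and its other starts were not examined. A start that opened with C and then 4 letters each C or T was found in 43 of 63 ribosomal protein genes with a RefSeq start (68.3 percent), in 11 of 14 other genes of a TOP list (78.6 percent) and in 582 of 10739 listed genes (5.42 percent). The reverse complement of the pattern was found in 4.55 percent. The 43 ribosomal protein genes with the pattern had a median of -1.98 and the 20 without it -1.72. Among the remaining genes of the table, 528 opened with the pattern, with a median of 0.039 against 0.245 for those that did not. An annotated start can lie some bases from the one used in these cells, so a missing match says nothing of the mRNA.

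Other mRNAs known to carry a TOP start were split. Of 21 listed, 14 were lower and 2 higher, with a median of -0.625. TPT1, the translationally controlled tumour protein, was lowest, with 265165, 234800 and 181157 in the cytoplasm and 47466, 50775 and 47314 in the heavy pool (-2.21 ± 0.27, adjusted p = 5.07e-06). GAS5, a noncoding host of snoRNAs, was at -1.83 ± 0.27. EEF1A1, which brings aminoacyl-tRNA to the ribosome, read 867015, 800281 and 740086 in the cytoplasm and 370216, 372592 and 324787 in the heavy pool, a difference of -1.17 ± 0.16 (adjusted p = 1.51e-05). The translocation factor EEF2 differed less (-0.55 ± 0.19, adjusted p = 0.0187), and its adjusted p was 0.0754 without pair B, 0.188 without pair C, 0.633 with equal library totals and 0.367 after the GC trend was removed. The poly(A)-binding protein PABPC1 did not pass (-0.46 ± 0.22, adjusted p = 0.0819). EIF4B, a helicase cofactor, went the other way with 26201, 26939 and 32235 in the cytoplasm and 40883, 36209 and 38038 in the heavy pool (0.44 ± 0.13, adjusted p = 0.00788; 0.0936 without pair A). EIF3A, the largest eIF3 subunit, was at 0.98 ± 0.35 (adjusted p = 0.0229; 0.19 without pair B and 0.0645 without pair C). The long noncoding snoRNA host genes, whose spliced RNAs are often short-lived, were lower for 17 of 18 listed, with a median of -1.61, as in DANCR (-2.33 ± 0.28) and SNHG6 (-2.33 ± 0.35).

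Among initiation factors and mTOR pathway genes 23 of 41 were higher and 8 lower (median 0.603). EIF4EBP1, the small repressor of cap binding that mTOR inactivates, fell from 9305, 11160 and 7984 in the cytoplasm to 1912, 2358 and 2006 in the heavy pool (-2.17 ± 0.19, adjusted p = 2.60e-07). The S6 kinase RPS6KB2 was lower as well (-1.70 ± 0.17). MTOR itself rose from 1297, 1354 and 2088 to 4520, 4664 and 4137 (1.52 ± 0.23), and so did the eIF2 kinase EIF2AK3 (1.68 ± 0.27). In mRNAs with upstream reading frames that respond to eIF2 phosphorylation, 6 of 14 were higher and 3 lower. PPP1R15B, a phosphatase subunit that acts on eIF2, rose from 1225, 1043 and 1729 to 5041, 4302 and 5107 (1.88 ± 0.23, adjusted p = 4.45e-06), with IBTK at 2.01 ± 0.37 and HAUS6 at 1.5 ± 0.40 (adjusted p = 0.0535 without pair B). ATF4, the stress transcription factor, was lower in each heavy pool library (14746, 13021 and 11865) than in any cytoplasmic library (26405, 27162 and 21185), with a difference of -0.91 ± 0.18 (adjusted p = 0.000328), and DDIT3 was at -0.89 ± 0.22. Neither ATF5 (-0.21 ± 0.16, adjusted p = 0.272) nor PPP1R15A (0.24 ± 0.13, adjusted p = 0.131) passed, although PPP1R15A did with equal library totals (0.67, adjusted p = 0.000419). The cytosolic aminoacyl-tRNA synthetases, enzymes that charge tRNAs, were higher for 14 of 20 and lower for none, led by NARS1 (1.39 ± 0.23) and IARS1 (1.35 ± 0.16). With 1 D1 letter left out, only 4 to 12 of these synthetases were called higher. Ribosome biogenesis factors were higher for 24 of 42, led by POLR1B (1.57 ± 0.18), a subunit of RNA polymerase I, and lower for 3, with NOP10 (-1.64 ± 0.22), a small snoRNP protein, the lowest.

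mRNAs of the mitochondrial genome are translated by the ribosomes of that organelle, and all 13 were called lower, with a median of -1.85 (-2.15, -1.43 and -2.14 in pairs A, B and C). MT-ND4, a complex I subunit, read 555887, 526813 and 377341 in the cytoplasm and 78150, 97603 and 53562 in the heavy pool (-2.69 ± 0.24, adjusted p = 3.04e-07). MT-ATP6 (-2.45 ± 0.27) and MT-ND1 (-2.17 ± 0.24) were close to it, and MT-ND3 was the least low (-1.21 ± 0.34). These RNAs were thus still present in the heavy pool after mitochondria had been pelleted. Of 79 respiratory chain subunits encoded in the nucleus 59 were lower and 3 higher (median -1.23). The small subunits ATP5ME (-2.52 ± 0.31) and UQCRQ (-2.37 ± 0.27) lay at the low end. Those higher included NDUFS1 (1.22 ± 0.16), the largest subunit of complex I, and ATP5F1A (0.75 ± 0.12), the alpha chain of ATP synthase. Mitochondrial ribosomal proteins were lower for 39 of 75 and higher for 7 (median -0.457), with MRPS15 the lowest (-2.24 ± 0.23). With 1 D1 letter left out, 28 to 37 were lower and 2 to 8 higher. The respiratory chain and mitochondrial ribosomal protein lists have median frames of 137 and 196 amino acids. Of all protein-coding genes with 100 to 200 amino acids 59.5 percent were lower and 6.25 percent higher (median -0.756). The part of length in these counts was not tested. Mitochondrial aminoacyl-tRNA synthetases were higher for 11 of 16 (median 0.812).

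Iron, polyamine and selenium genes each held mRNAs at both ends. The iron-responsive element of ferritin mRNA is a hairpin close to the start, and the loop letters CAGTG are shown in capitals in bases 21 to 50 of FTL at the RefSeq start.
FTL: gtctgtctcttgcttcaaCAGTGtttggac
Those letters were found in the first 50 bases of 5.46 percent of listed genes (4.43 percent for the reverse complement). They were found in 1 of 8 genes of the iron-responsive element list that have a RefSeq start. That list was written from general knowledge, and whether and where each of its mRNAs carries the element was not examined. FTH1 has no RefSeq start in the table used. Of the 10 listed genes of that list FTL and FTH1 were lower and 7 were higher, with a median of 1.15. The 7 are not shown to carry an element like that of ferritin. IREB2, an iron-regulatory protein, was at 1.68 ± 0.25, CDC14A at 1.52 ± 0.37, and the transferrin receptor TFRC rose from 2257, 2001 and 2819 to 6630, 5868 and 4444 (1.25 ± 0.19, adjusted p = 3.09e-05). Among 12 polyamine genes 7 were lower and 2 higher. Ornithine decarboxylase ODC1 was at -1.22 ± 0.13, its antizyme OAZ1, which is made by frameshifting, at -1.41 ± 0.20, and spermidine synthase SRM at -1.51 ± 0.16. The antizyme inhibitor AZIN1 rose from 5009, 4872 and 7379 to 14083, 12800 and 17186 (1.37 ± 0.16, adjusted p = 4.06e-06). Of 18 selenoproteins 9 were lower and 5 higher. GPX4, the lipid peroxidase, fell from 46448, 51011 and 37613 to 6508, 7305 and 6064 (-2.76 ± 0.21, adjusted p = 6.61e-08), SELENOW was at -2.69 ± 0.19, and the thioredoxin reductase TXNRD1 was at 1.47 ± 0.16.

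TYMS, the thymidylate synthase that 5-FU inhibits, had overlapping fractions, with 21961, 20064 and 19471 in the cytoplasm and 18510, 20269 and 18609 in the heavy pool (-0.10 ± 0.13, adjusted p = 0.532). Its sign depends on the scaling: with equal library totals the difference was 0.33 and passed (adjusted p = 0.00945). In the list of enzymes of thymidylate and 5-FU metabolism 10 of 30 were higher and 8 lower, with a median of 0.187, which is near the shares over all genes (30.8 and 26.8 percent). RRM2, a ribonucleotide reductase subunit, rose from 27052, 25096 and 30218 to 43632, 46826 and 49559 (0.77 ± 0.12, adjusted p = 3.36e-05), and its p53-induced relative RRM2B was at 1.72 ± 0.30. The glycosylase TDG, which removes uracil and 5-FU from DNA, was higher (1.18 ± 0.22), while the related enzyme SMUG1 (-1.20 ± 0.21) and the cytidine deaminase CDA (-1.59 ± 0.27) were lower.

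The p53 targets were higher for 18 of 37 listed and lower for 3 (median 0.505), where 30.8 percent of all genes were higher and 26.8 percent lower. CDKN1A, the cell cycle inhibitor p21, did not differ beyond its spread, with 73234, 95515 and 91503 in the cytoplasm and 95256, 87552 and 83396 in the heavy pool (0.04 ± 0.18, adjusted p = 0.86). After a linear trend with GC content was removed from each library, its difference was 0.37 (adjusted p = 0.0128). MDM2, the ligase that degrades p53, rose from 8547, 7247 and 9341 to 17839, 14906 and 15455 (0.94 ± 0.23, adjusted p = 0.00205). PLK2 (1.71 ± 0.17) and the ceramidase ACER2 (1.75 ± 0.47) were higher. The stress cytokine GDF15 did not pass (-0.36 ± 0.17, adjusted p = 0.0712). The 3 lower targets have short frames: BAX (-1.33 ± 0.17), which opens the mitochondrial outer membrane, RPS27L, and TRIAP1 (-0.89 ± 0.17). In the list of BCL2 family and apoptosis genes 14 of 32 were higher and 7 lower. MCL1, a short-lived survival protein, rose from 3248, 3570 and 4441 to 9863, 9504 and 10547 (1.42 ± 0.15, adjusted p = 9.60e-07), with the apoptosome scaffold APAF1 (1.44 ± 0.25), while the sensitiser BAD fell (-1.68 ± 0.21).

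Cell cycle and genome maintenance mRNAs were mostly higher. The DNA replication, mitotic and DNA repair lists had median frames of 553, 631 and 862 amino acids, against 461 for listed protein-coding genes. Of all protein-coding genes with 400 to 800 amino acids 44.6 percent were higher (median 0.461). Between 800 and 1600 amino acids 63 percent were higher (median 0.841). The part of length in the counts of these lists was not tested. DNA replication genes were higher for 31 of 42 and lower for 4 (median 0.73), led by the helicase subunit MCM6, which rose from 1905, 1770 and 2637 to 6413, 7573 and 6748 (1.73 ± 0.16, adjusted p = 3.04e-07). Mitotic genes were higher for 24 of 42 and lower for 3 (median 0.739), with the spindle proteins PRC1 (2.32 ± 0.49) and BUB1B (1.98 ± 0.24) at the top and the centromeric histone CENPA (-1.38 ± 0.17) at the bottom. With 1 D1 letter left out, 16 to 23 mitotic genes were higher. DNA repair genes were higher for 29 of 43 and lower for none (median 0.82). FANCM, a Fanconi anaemia helicase, was at 1.80 ± 0.43, and the ligase LIG4 at 1.61 ± 0.49 (adjusted p = 0.0812 without pair B). Chromatin remodellers and acetyltransferases, with a median frame of 2302 amino acids, were higher for 29 of 35 and had a median of 1.13. ARID2 rose from 256, 231 and 343 to 1145, 1141 and 1535 (2.21 ± 0.30, adjusted p = 1.32e-05), SRCAP was at 2.12 ± 0.44 and CREBBP at 1.88 ± 0.32. CHD4 was the exception, at -0.65 ± 0.25 (adjusted p = 0.0325), and its adjusted p was 0.0704 to 0.119 with any letter left out. Adhesion receptors, with a median frame of 882 amino acids, were higher for 14 of 25 (median 0.861). The part of length in this count was not tested. ITGAV (2.01 ± 0.30) led them, and the short claudin CLDN3 was lower (-1.17 ± 0.19). After the GC trend was removed, CLDN3 was at -0.41 and was not called (adjusted p = 0.0981). Immediate-early and short-lived regulators were higher for 24 of 40, as in MYC (0.88 ± 0.22) and the phosphatase DUSP6 (1.59 ± 0.17), and lower for 3, with JUND at -1.52 ± 0.16.

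**Figure D3:**
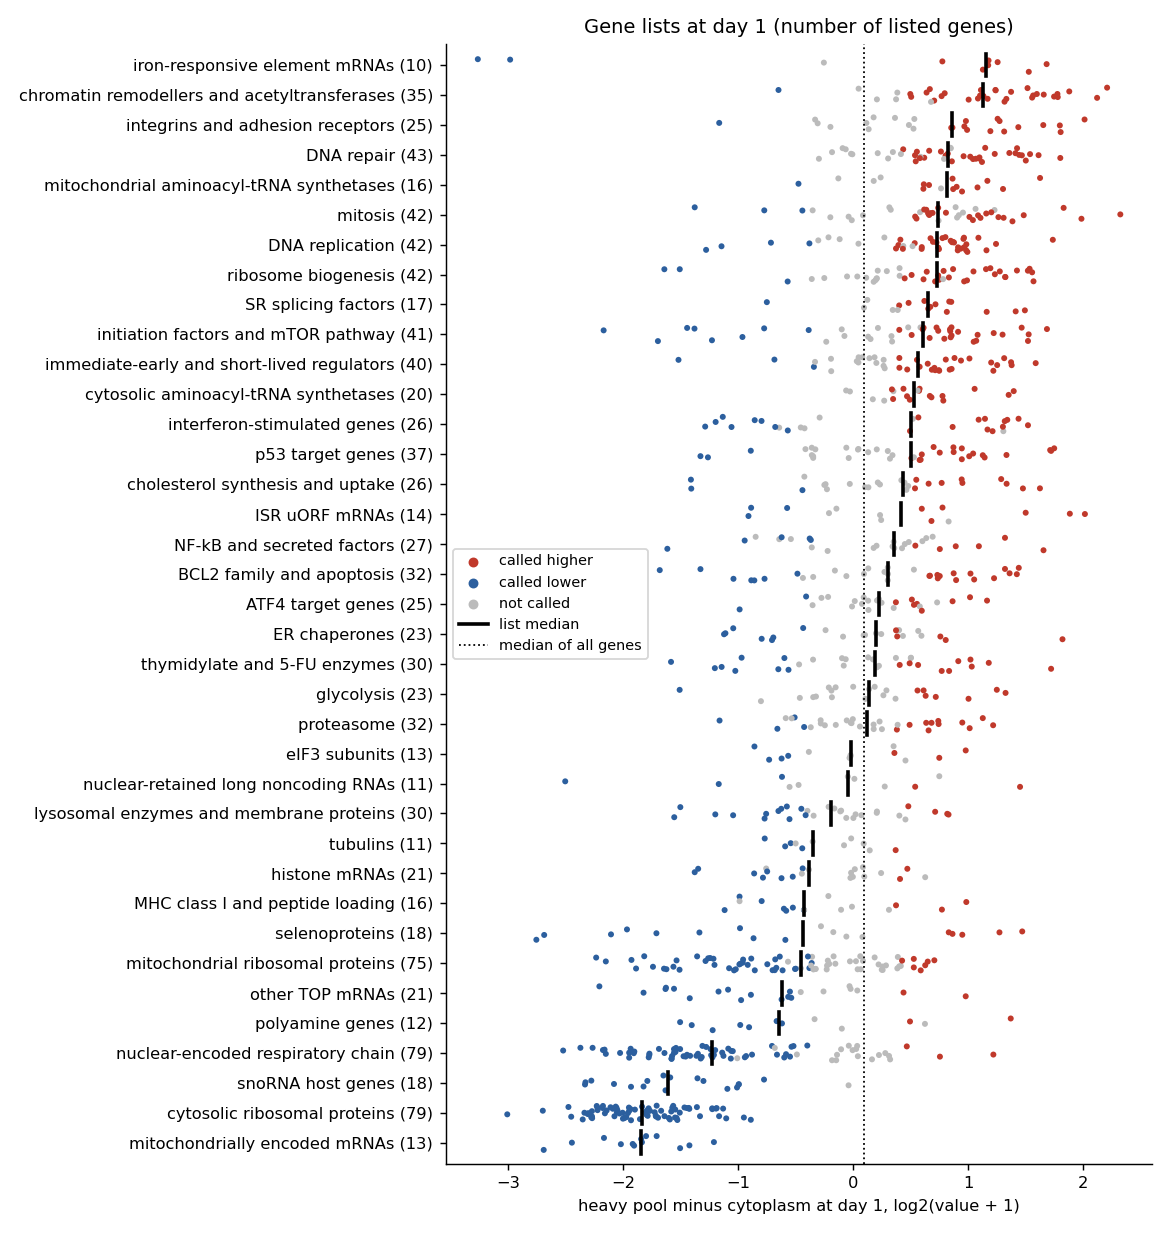
Heavy pool minus cytoplasm at D1 (log2) for each member of the gene lists with at least 10 listed genes, ordered by median, red for called higher, blue for called lower and grey for not called. Black bars are list medians and the dotted line is the median of all genes, 0.0911. The mitochondrially encoded and ribosomal protein mRNAs lie wholly to the left, and the iron-responsive element list spans both ends.

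GAPDH and ACTB, often used as references, were examined in turn. GAPDH, the glycolytic dehydrogenase, read 745171, 776343 and 617605 in the cytoplasm and 232898, 284405 and 233100 in the heavy pool (-1.51 ± 0.19, adjusted p = 6.71e-06), and it was the only 1 of 23 glycolytic genes called lower, while 7 were called higher. The actin ACTB was slightly lower (-0.52 ± 0.16, adjusted p = 0.0105), and its adjusted p was 0.0682 without pair A, 0.368 with equal library totals and 0.108 after the GC trend was removed. In a list of long noncoding RNAs with 11 listed members, drawn up as nuclear-retained although NORAD is known as mainly cytoplasmic, 3 were lower and 2 higher. PVT1 (-2.51 ± 0.21), OIP5-AS1 (-0.62 ± 0.21) and MALAT1 (-1.17 ± 0.42, adjusted p = 0.0241; 0.0641 without pair A and 0.168 without pair C) were lower, and TUG1 (1.45 ± 0.23) and NORAD (0.54 ± 0.17; adjusted p = 0.142 without pair A) were higher.

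The D1 difference was next set against that before the drug. This comparison and the one with D2 use the same D1 libraries, and each is given on its own. Few genes passed: 9 were higher at D1 than at D0 (0.0566 percent of 15891) and 63 were lower (0.396 percent), together 0.453 percent, while 4206 (26.5 percent) had an unadjusted p under 0.05. The count was unstable. It was 1 higher and 5 lower without letter A of D1, 0 and 4 without B, and 1 and 3 without C. It rose to 1115 and 1441 when the pairs D7 A, D14 B and D16 B, whose cytoplasmic libraries stand apart, were left out of the shared estimate of the spread, and to 125 and 536 with no pairing by letter. With equal library totals it was 0 and 2, and 1 and 6 after a linear GC trend was removed. Cytoplasm A of D2 was not among the libraries left out, although its SD around the group mean (0.484) was close to that of D16 B (0.485). No alternative left out a single pair of D0 or D2. The median GC content was 58.1 percent in the 63 lower genes and 44.0 percent in the 9 higher ones, against 49.8 percent in all protein-coding genes. Across 12390 protein-coding genes the Spearman correlation of the change from D0 with GC content was -0.728. It was 0.295 with coding length, 0.483 with transcript length and 0.422 with the length of the 3′ untranslated region. The part of length in these calls was not tested. The part of base composition in these calls was not tested beyond removing the trend.

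Tubulin mRNAs were among those that fell. TUBA1B, an alpha-tubulin, was higher in the heavy pool before the drug, with 150439, 136382 and 166857 in the cytoplasm and 289452, 306985 and 347049 in the heavy pool. At D1 it read 166742, 194593 and 189235 in the cytoplasm and 104279, 142008 and 120695 in the heavy pool. In these normalised values the fractions had changed order in every pair, and the difference went from 1.06 to -0.59, a change of -1.65 ± 0.21 (adjusted p = 0.00277). TUBA1A changed by -1.52 ± 0.20 (adjusted p = 0.00277) and TUBA1C by -1.50 ± 0.22 (adjusted p = 0.0106). These 3 genes are near-identical in their coding regions, and TUBA1A and TUBA1C overlap on chromosome 12, so their reads cannot be fully told apart. The gamma-tubulin TUBG1, on chromosome 17, changed by -1.08 ± 0.21 (adjusted p = 0.041). In all, 4 of 11 tubulins fell, and the list median was -0.354 at D1 and 0.794 at D0. The calls of TUBA1A and TUBA1B held with any D1 letter left out and after the GC trend was removed, while none of the 4 held with equal library totals. With equal totals the D1 difference itself was -0.16 for TUBA1B, -0.11 for TUBA1A and -0.01 for TUBA1C (adjusted p = 0.352, 0.521 and 0.955). A D1 level in the heavy pool below that in the cytoplasm thus depends on the scaling. TUBG1 was not called with any single D1 letter left out, and TUBA1C was not called without A or without C.

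GAPDH changed by -1.47 ± 0.27 (adjusted p = 0.041), from 446426, 404815 and 413714 in the cytoplasm and 378510, 428962 and 422054 in the heavy pool at D0 to the D1 values above, and it was called with equal library totals but not after the GC trend was removed. The pentose phosphate enzyme TKT fell by 1.41 ± 0.22 on the log2 scale, the keratin KRT8 by 1.17 ± 0.24 and YBX3 by 0.87 ± 0.18 (changes of -1.41, -1.17 and -0.87). The calls of GAPDH, KRT8 and YBX3 were lost with any D1 letter left out, and that of TKT without B or C. The larger falls of CCK (-2.43 ± 0.50), HMCN2 (-2.22 ± 0.48), JSRP1 (-2.13 ± 0.45) and ZNF593OS (-2.05 ± 0.44) rest on levels under 600, and JSRP1 (chr19:2252252-2269759, minus strand) overlaps the abundant OAZ1 (chr19:2269509-2273490, plus strand). At D0 HMCN2 read only 3.39, 7.32 and 3.84 in the cytoplasm and 15.2, 7.85 and 19.6 in the heavy pool, and CCK read 10.8 to 19.2. HMCN2 was not called with a pseudocount of 8 (-1.62, adjusted p = 0.0539). The calls of CCK, HMCN2, JSRP1 and ZNF593OS were all lost with any D1 letter left out. They were also lost with equal library totals and after the GC trend was removed. Of the 63 genes 17 are pseudogenes, most of them copies of keratin genes or of the ribosomal protein gene RPSA. Ribosomal proteins as a list had a median of -1.04 at D0 and -1.84 at D1; 78 of the 79 changes were negative, but none was called. FTL (-0.71 ± 0.27, adjusted p = 0.126) and YBX1 (-1.09 ± 0.29, adjusted p = 0.0674) were not called either.

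The rises from D0 were led by VPS13C, a lipid-transfer protein, with 274, 211 and 296 in the D1 cytoplasm and 997, 829 and 784 in the D1 heavy pool against overlapping fractions at D0 (1.74 ± 0.33, adjusted p = 0.041). YLPM1 (1.52 ± 0.27), KLHL2 (1.36 ± 0.29), the DNA-dependent kinase PRKDC (1.36 ± 0.27) and KIAA1217 (1.24 ± 0.26) followed. AMD1, which makes the aminopropyl donor for polyamines, went from 3577, 4170 and 3988 in the cytoplasm and 2212, 2089 and 2138 in the heavy pool at D0 to 2087, 1524 and 2031 and 2807, 2201 and 2910 at D1. The cytoplasmic level was lower and the heavy pool level somewhat higher in every letter at D1, and the change was 1.36 ± 0.29 (adjusted p = 0.0451). UAP1, which makes the nucleotide sugar for glycosylation, changed by 1.19 ± 0.22 and CDC42SE2 by 1.09 ± 0.22. None of these 8 rises was called with equal library totals, or with letter A or letter B of D1 left out. MDM2 (1.15 ± 0.32, adjusted p = 0.0753) did not pass.

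**Figure D4:**
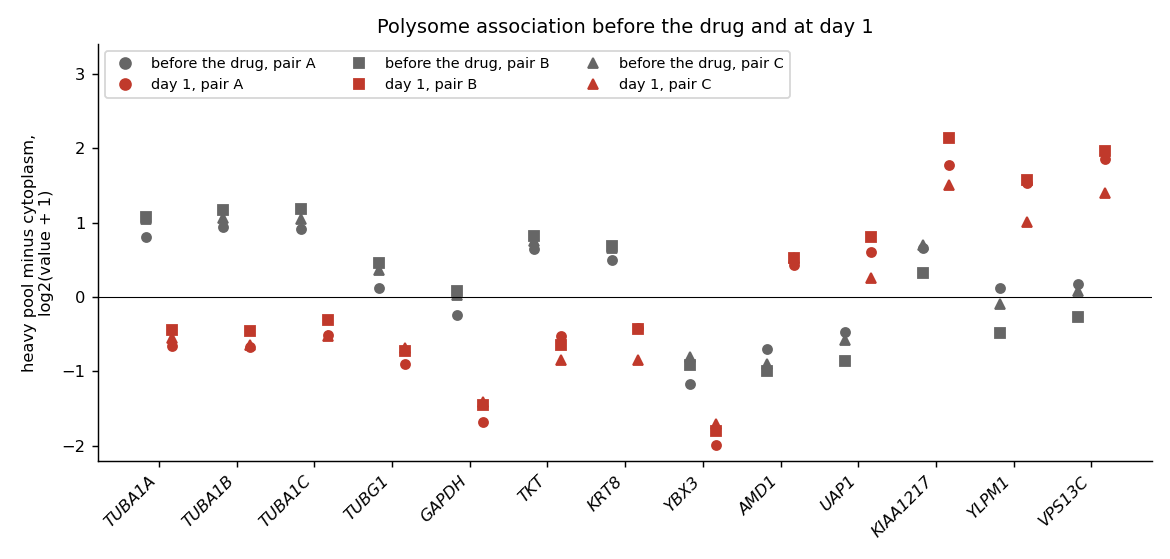
Heavy pool minus cytoplasm (log2) of 13 genes whose difference was called as changed between D0 (grey) and D1 (red), with circles, squares and triangles for pairs A, B and C. The pairs of the 2 days do not overlap for any gene drawn, and TUBA1B goes from 0.94 to 1.17 before the drug to between -0.68 and -0.45 at D1.

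Against D2, at the end of the exposure, 22 genes were higher at D1 (0.138 percent of 15891) and 1 was lower (0.00629 percent), together 0.145 percent, while 1411 (8.88 percent) had an unadjusted p under 0.05. The 22 comprised 9 of the 13 mitochondrially encoded mRNAs, 4 nuclear copies of such genes, 3 pseudogenes of EIF4B and 6 other protein-coding genes. MT-ND1 differed by 2.58 ± 0.34 (adjusted p = 0.00212), from -2.17 at D1 to -4.75 at D2, and MT-ND2 by 2.64 ± 0.35. The list median was -1.50 at D0, -1.85 at D1 and -3.96 at D2. Mitochondrial reads were 2.18 to 3.93 percent of the heavy pool at D1 and 0.808 to 1.62 percent at D2, and 7.30 to 8.95 percent and 8.36 to 13.6 percent of the cytoplasm. Whether mitochondria were pelleted to the same degree on both days was not tested. Of the other 6, UAP1 differed by 1.72 ± 0.22 (adjusted p = 0.00212), the nuclear import factor KPNA2 by 1.08 ± 0.18, the elongin subunit ELOA by 1.10 ± 0.20, KNOP1 by 1.02 ± 0.18, EIF4B by 1.00 ± 0.18 and the mitotic cyclin CCNB1 by 0.92 ± 0.17. EIF4B was higher in the heavy pool at D1 and lower at D2 (0.44 and -0.57), and its pseudogenes may share its reads. KDELR1, the receptor that returns chaperones to the endoplasmic reticulum, was the only gene lower at D1 than at D2 (-1.11 ± 0.20, adjusted p = 0.0261). The calls of UAP1, MT-ND1 and MT-ND2 held under every alternative run, and the others were lost under at least 1, KDELR1 with any D1 letter left out.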

How the data were processed

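What was deposited is a normalised signal: the authors scaled each library's read counts per gene by 1 factor, and all values are whole multiples of that library's step within 0.01. Per the submitters' processing notes, the tools included DESeq2 1.30.1, Subread 2.0.1 (featureCounts), STAR 2.7.9a, cutadapt 3.2 and FastQC 0.11.9, and the build was GRCh38. Per the labels' protocols, libraries were poly(A)-selected and strand-marked. Of its 54 columns 36 were matched to samples, and the other 18 were not used. The smallest value is 1.004, so genes silent in any column are not analysed here. Depth was summed from values divided by the step, and counting is without molecular identifiers.

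Differences of log2(value + 1), heavy pool minus cytoplasm, were taken within each of the 18 pairs of letter and day and fitted in limma 3.58.1 (lmFit, eBayes with trend, R 4.3.3) with 1 mean per day. Tests were two-sided with Benjamini-Hochberg adjustment over all 15891 genes, with calls made at an adjusted p below 0.05. Letters pair samples because the labels give them as batches. Deviations of the same letter's fractions from their group means had a mean r of 0.115 at D1 and of -0.000968 over all days (5 of 18 above 0.1). Between fractions of different letters it was -0.0578 at D1 and -0.00171 over all days (9 of 36 above 0.1). Steps were tested on simulated data.

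Symbols were matched for 15816 identifiers. Coordinates, lengths and GC content come from GENCODE 29 (15799 found, 12399 protein-coding) and starts from RefSeq (10741). Genes are named by a rule: the 12 highest and the 12 lowest among called genes that code for protein, have a mean level of 100 or more and keep 1 sign in all 3 letters, the 8 largest changes from D0 each way, up to 4 called members and 3 exceptions per list, and a fixed set. Other genes, among them YBX3, TKT, RPL3 and those named against D2, were chosen after their values were seen. The comparison and the 39 gene lists were chosen with earlier results of these data known.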

Additional observations from a re-analysis of the deposited data

Results flagged for a closer look

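The change in the heavy pool difference between days was tested for each gene, and those named in the text that passed (limma, adjusted p under 0.05) are given here as log2 changes; the comparisons share the D1 libraries. From D0 to D1 the falls of TUBA1B (-1.65), TUBA1A (-1.52), TUBA1C (-1.50), TUBG1 (-1.08), GAPDH (-1.47), TKT (-1.41), KRT8 (-1.17) and YBX3 (-0.87) passed. At low levels CCK (-2.43), HMCN2 (-2.22), JSRP1 (-2.13) and ZNF593OS (-2.05) passed too, but none of them did with any D1 letter left out. Rises passed for VPS13C (1.74), YLPM1 (1.52), KLHL2 (1.36), PRKDC (1.36), AMD1 (1.36), KIAA1217 (1.24), UAP1 (1.19) and CDC42SE2 (1.09).

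Against D2 the value at D1 was higher for MT-ND3 (2.91), MT-ND2 (2.64), MT-ND1 (2.58), MT-ND4 (2.02), MT-CO1 (1.73), UAP1 (1.72), ELOA (1.10), KPNA2 (1.08), KNOP1 (1.02), EIF4B (1.00) and CCNB1 (0.92), and lower for KDELR1 (-1.11). The causes were not tested.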

How the results depend on the processing

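The D1 calls were the most stable: 4901 genes were higher and 4263 lower, and over the alternatives run the higher count was 3417 to 7142 and the lower count 2651 to 4649, with the 2651 from equal library totals (total-sum scaling). Leaving out 1 D1 letter gave 3417 to 4511 higher and 3418 to 3748 lower. TYMS reversed, from -0.10 to 0.33 with total-sum scaling. The Spearman correlation with coding length was 0.443 in letter C alone (0.587 for the mean), and that with GC content was -0.207 in letter A alone (-0.441 for the mean). For the change from D0 (9 higher, 63 lower) a level of at least 100 gave 16 and 167, total-sum scaling 0 and 2, TMM scaling 5 and 14, and only the days D0, D1 and D2 gave 0 and 6. Removing the GC trend gave 1 and 6, leaving out 1 D1 letter 0 to 1 and 3 to 5, and leaving out the pairs D7 A, D14 B and D16 B 1115 and 1441. For D1 against D2 (22 higher, 1 lower) total-sum scaling gave 20 and 10, only D0 to D2 gave 8 and 0, removing the GC trend 37 and 2, leaving out 1 D1 letter 4 to 17 and 0 to 0, and leaving out the 3 pairs 60 and 5. The last 2 alternatives, GC and the 3 pairs, were chosen after seeing the data, and the cause was not tested.

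Without pairing by letter (no replicate block) the counts were 4966 higher and 4296 lower at D1, 125 and 536 for the change from D0, and 28 and 2 against D2. All 72 genes called as changed from D0 in the paired fit were also called without the block, but of the 22 genes higher at D1 than at D2 only 13 were, with MT-ND3 (adjusted p = 0.0562), MT-ND4 (0.0952) and MT-CO1 (0.126) among those lost. The fit to the D1 pairs alone gives no value for a change between days. The filter of at least 10 in 3 libraries removed no gene. The count tests edgeR and DESeq2 were not run. Reads recovered as values divided by the step were used for the total-sum and TMM scalings. They were not accepted as raw counts, since the deposited values start at 1.004. Depth was similar in the 6 libraries, and low genes such as CSAG1 and NR4A3 rest on few reads.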

Other observations

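The groups below are to be read against all genes at D1, of which 30.8 percent were higher and 26.8 percent lower (37.2 and 22.2 percent of protein-coding genes). Of 30 lysosomal genes 12 were lower in the heavy pool at D1 and 4 higher (median -0.191, against 0.0911 for all genes). The small proteins NPC2 (-1.56 ± 0.19) and CD63 (-1.50 ± 0.22) were lowest. Of 16 genes of MHC class I and peptide loading 7 were lower and 3 higher, with the immunoproteasome subunit PSMB9 and B2M, the light chain of class I molecules, at the low end and the aminopeptidase ERAP1 at the high end. ERAP1 was not called without letter A (adjusted p = 0.106), without B (0.12) or after the GC trend was removed (0.104). Their median was -0.429 but 0.0014 with equal library totals. Chaperones of the endoplasmic reticulum were lower for 7 of 23 and higher for 5, from SDF2L1 and MANF to SEL1L, a subunit of the degradation complex, and SDF2L1 was not called after the GC trend was removed (adjusted p = 0.0732).

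SR splicing factors and their kinases were higher for 12 of 17, led by CLK4 and SRSF11, and lower for 1, SRSF9. With 1 D1 letter left out, 6 to 13 of them were higher. SRSF11 was at 0.97 without letter B (adjusted p = 0.0708). Proteasome subunits were higher for 11 of 32 and lower for 4, from PSMA7 to PSMD12, so the share called higher is near that of all genes. With 1 D1 letter left out, 6 to 12 proteasome subunits were higher and 2 to 5 lower. Interferon-stimulated genes were higher for 12 of 26, led by IFIT5, and lower for 8, led by the short membrane protein IFITM2. Cholesterol genes were higher for 10 of 26, led by HMGCS1, and lower for 3. By type of gene, 51.1 percent of 1337 processed pseudogenes were lower and 8.98 percent higher, 40.2 percent of 676 antisense genes were lower and 3.99 percent higher, and 40.3 percent of 528 lincRNAs were lower and 5.11 percent higher. For protein-coding genes the shares were 22.2 and 37.2 percent.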
